A study of Rattus norvegicus with 8 samples.

Results

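Stellate cell and fibrillar matrix genes were followed in rat hepatocytes captured by laser microdissection (LMD), through 10 genes chosen by name: the fibrillar collagen genes Col1a1, Col1a2 and Col3a1, the matrix proteoglycan genes Dcn and Lum, the protease inhibitor gene Timp1, and the stellate cell and myofibroblast genes Lrat, Des, Acta2 and Pdgfrb. These 10 genes, of 27110 named genes on the array, were measured by 12 of its 45598 gene probes, on 31 spots of each array. MHs (mature hepatocytes, 2 samples) and control SHPCs (small hepatocyte-like progenitor cells that form clusters, 3 samples) came from control recipient livers, and BM-MC SHPCs (3 samples) came from livers that had received bone marrow-derived mesenchymal cells (BM-MCs). Per the methods, all recipients, controls included, were female F344 rats given retrorsine, an agent used to limit the proliferation of mature hepatocytes, and partial hepatectomy, and the donor cells came from a male F344 rat and were infused through the spleen. The labels give the strain as F344 and DPPIV+, the methods give the recipients as DPPIV-, and neither gives their age or ties a sample to an animal, so that p-values measure the spread between these samples, which may be technical.

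Hepatic stellate cells lie between the hepatocytes and the sinusoidal endothelium and store retinoids, which LRAT esterifies. When the liver is injured they can become myofibroblasts, which respond to PDGF through PDGFRB, contain alpha smooth muscle actin (Acta2) and secrete type I and type III collagen and TIMP1, an inhibitor of matrix metalloproteinases. Decorin (Dcn) and lumican (Lum) are small leucine-rich proteoglycans that bind collagen fibrils, and desmin (Des) is an intermediate filament protein of muscle and of rat stellate cells. None of these genes defines a hepatocyte, so the label was checked against hepatocyte markers and against markers of other liver cells. In such bulk samples fewer cells of a type and less RNA per cell cannot be told apart.

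All 8 arrays shared 1 slide and 1 scan, with the MHs and control SHPC replicates 1 and 2 in one set of 4 positions and the other 4 samples in the other set. Between 57.1% and 61.5% of gene spots were well above background, and none was saturated. All 15 hepatocyte markers were tested, and their mean log2 level lay between 6.12 and 6.33 in every sample. Single markers of this list went both ways between the groups, as given below. Levels are log2 signals less the 75th percentile of their own array, so that 0 is the 75th percentile and a difference of 1 is a 2-fold difference. A level of one probe says nothing about the level of another gene's probe, and only samples are compared below.

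Of the probes, 4 are shown, with coordinates from the array's own annotation of the rn4 build. The first 2 are shown because each was printed on the array in 10 copies, the third because its level had the widest range over the samples among the tested probes of these genes, and the last because it was not well above background on any array with complete marks. The probe of Timp1 spans 1004 bases of the genome (chrX:12542700-12543703, minus strand) and that of Dcn spans 3802 bases (chr7:35037331-35041132, plus strand), although each probe has 60 bases, so that both cross a splice junction. The probes of Col3a1 (chr9:44317465-44317524, plus strand) and Lum (chr7:35086409-35086468, plus strand) lie in 1 uninterrupted stretch.
Col3a1: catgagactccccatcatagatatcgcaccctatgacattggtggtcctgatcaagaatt
Timp1: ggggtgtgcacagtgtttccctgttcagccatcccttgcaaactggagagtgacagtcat
Dcn: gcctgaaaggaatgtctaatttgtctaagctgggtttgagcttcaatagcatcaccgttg
Lum: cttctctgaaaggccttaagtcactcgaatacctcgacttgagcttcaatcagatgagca

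Of the 10 genes, 9 passed the filter on dim probes, and these 9 were above background on all 7 arrays whose marks are complete. The exception was Lum, whose spot was not well above background on any of these 7 arrays and whose processed signal lay between 4.24 and 5.98 units over the 8 samples. The level of lumican was therefore not measurable here in any group. Lrat had a second probe, which among these 7 arrays was above background on those of MH replicate 1 and BM-MC SHPC replicate 1, and it was not tested. Its processed signal was 48.7 and 40.8 units there and 129.7 units in control SHPC replicate 2, whose background marks are incomplete. Both probes of Col1a1 were tested, and their levels correlated with r = 0.988 over the 8 samples.

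**Figure D1:**
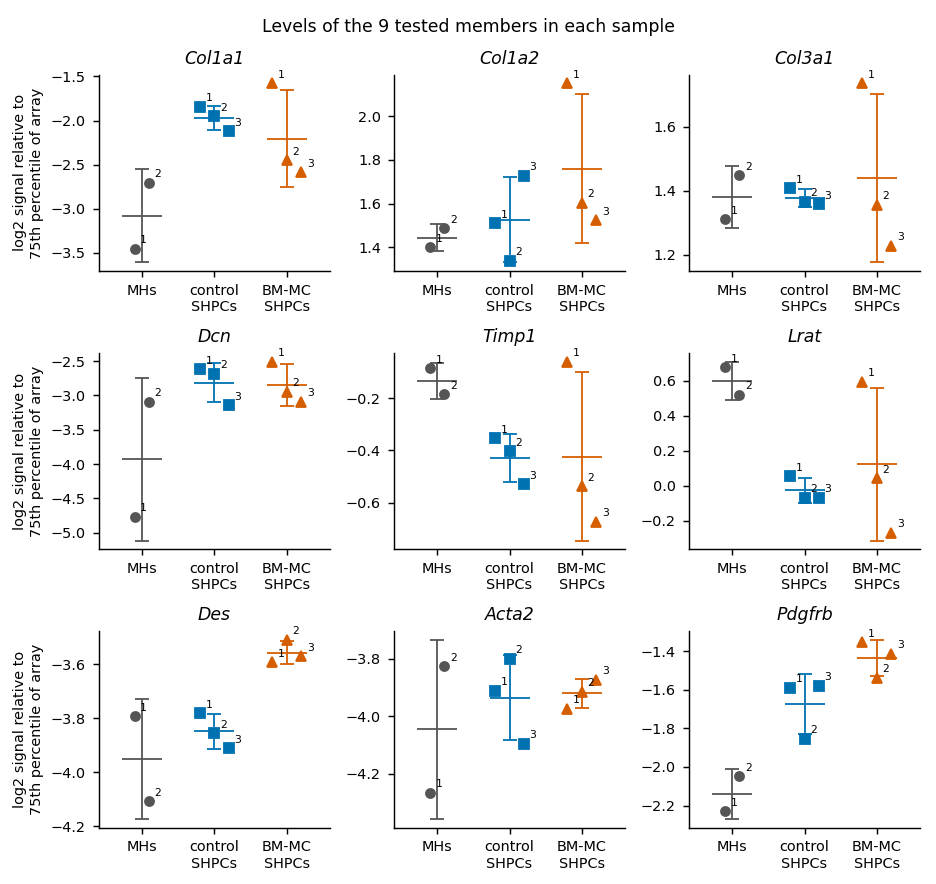
Level of each of the 9 tested genes in each sample, as the log2 signal relative to the 75th percentile of the array. Points are samples with their replicate number, the wide line is the group mean and the bars are 1 SD (n = 2 for MHs, n = 3 for each SHPC group). BM-MC SHPC replicate 1 is the highest sample in 6 of the 9 panels, and the MHs lie below all SHPCs for Col1a1 and Pdgfrb.

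Of the 3 collagen genes, Col1a1 had levels that separated MHs from SHPCs, and those of Col1a2 and Col3a1 overlapped between MHs and control SHPCs. Col1a1 encodes the alpha 1 chain of type I collagen. Its level was -3.45 and -2.70 in the MHs, -1.84, -1.95 and -2.12 in control SHPCs, and -1.58, -2.45 and -2.59 in BM-MC SHPCs. Both MHs thus lay below every SHPC sample, and the BM-MC SHPCs spread across and beyond the narrow range of the control SHPCs. The second Col1a1 probe had -3.58 and -3.13 in the MHs and between -2.87 and -1.85 in the 6 SHPC samples, with the same separation. The log2 difference between control SHPCs and MHs was 1.11 (standard error 0.336, 95% limits 0.323 to 1.89), with an unadjusted p = 0.0121 and an adjusted p = 0.161 from limma, by Benjamini-Hochberg over all tested probes. The gene is therefore not called. Without MH replicate 1 the difference was 0.733 and without MH replicate 2 it was 1.48.

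Col1a2 encodes the alpha 2 chain of the same collagen, and its pattern was another one. Its level was 1.40 and 1.49 in the MHs, 1.51, 1.34 and 1.73 in control SHPCs, and 2.15, 1.60 and 1.52 in BM-MC SHPCs. One sample, BM-MC SHPC replicate 1, stood above the other 7, and the MHs and control SHPCs overlapped. Control SHPCs differed from MHs by 0.081 (standard error 0.213, 95% limits -0.416 to 0.579, adjusted p = 0.865 from limma). The levels of Col1a1 and Col1a2 correlated with r = 0.549 over the 8 samples, as a description.

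Col3a1, the gene of type III collagen, was at 1.31 and 1.45 in the MHs, at 1.41, 1.37 and 1.36 in control SHPCs, and at 1.74, 1.36 and 1.23 in BM-MC SHPCs. Again BM-MC SHPC replicate 1 was the highest sample and the groups overlapped. Its probe was printed 10 times on each array, and the pooled SD between these spots was 0.0408, against an SD of 0.150 between samples. The lowest of the 10 spots in BM-MC SHPC replicate 1 was at 1.68 and the highest spot of any other array was at 1.52. The high value of that sample is thus larger than the error of single spots on an array, which says nothing about the spread between livers. Its mean levels in the groups were 1.38 in MHs, 1.38 in control SHPCs and 1.44 in BM-MC SHPCs, neighbours that do not differ beyond their spread.

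**Figure D2:**
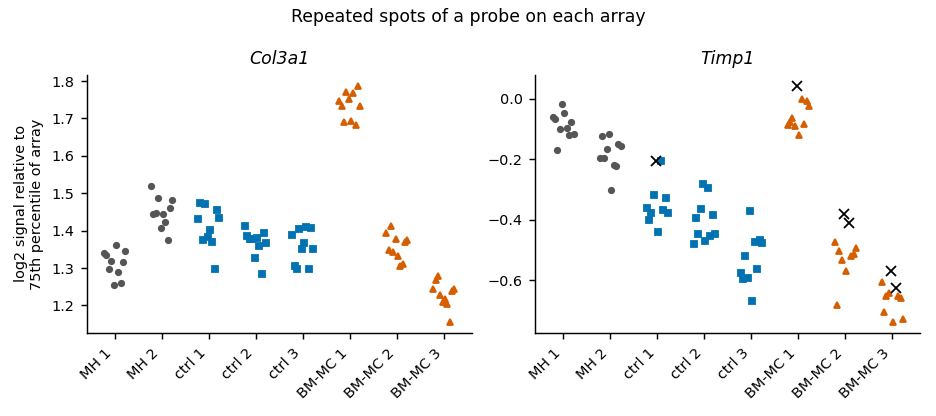
Level of each of the 10 spots of the Col3a1 probe (left) and of the Timp1 probe (right) on each array, as the log2 signal relative to the 75th percentile of the array, with MH, control SHPC (ctrl) and BM-MC SHPC samples by replicate number. Crosses are the 6 spots marked as outliers, which were left out. The outlier marks of control SHPC replicate 2 are incomplete, and its spots without a mark were kept. The spots of BM-MC SHPC replicate 1 lie at 1.68 or above for Col3a1, over all spots of the other arrays.

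Dcn had the widest range of the 9 genes, 2.26 on the log2 scale, and most of it came from 1 sample. Its level was -4.77 and -3.09 in the MHs, -2.62, -2.68 and -3.14 in control SHPCs, and -2.51, -2.95 and -3.09 in BM-MC SHPCs. MH replicate 1 stood far below all others, while MH replicate 2 lay within the range of the SHPCs. The log2 difference between control SHPCs and MHs was 1.12 (standard error 0.456, 95% limits 0.049 to 2.18, adjusted p = 0.248 from limma). It was 0.275 without MH replicate 1 and 1.96 without MH replicate 2, so that its size rests on that one MH sample. The order of the group means, MHs lowest and both SHPC groups near -2.81 and -2.85, was not beyond the spread of the MHs. Over the 8 samples Dcn correlated with Col1a1 at r = 0.903.

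Timp1 and Lrat had the other order, with higher levels in both MHs than in all control SHPCs. The level of Timp1 was -0.086 and -0.184 in the MHs, -0.353, -0.402 and -0.530 in control SHPCs, and -0.060, -0.537 and -0.673 in BM-MC SHPCs. Every control SHPC sample lay below both MHs, whereas BM-MC SHPC replicate 1 was as high as the MHs and its other replicates were the lowest samples of all. The log2 difference between control SHPCs and MHs was -0.293 (standard error 0.189, 95% limits -0.736 to 0.149, adjusted p = 0.427 from limma). The pooled SD between the spots of Timp1 was 0.0667 and the SD between samples was 0.221.

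Lrat, the gene of the enzyme that esterifies retinol, had levels of 0.677 and 0.520 in the MHs, 0.055, -0.069 and -0.068 in control SHPCs, and 0.596, 0.043 and -0.268 in BM-MC SHPCs. The control SHPCs lay together below the MHs, and BM-MC SHPC replicate 1 again lay with the MHs. The log2 difference, control SHPCs against MHs, was -0.626 (standard error 0.236, 95% limits -1.18 to -0.074), with an unadjusted p = 0.0311 and an adjusted p = 0.225 from limma. The levels of Lrat and Timp1 correlated with r = 0.952 over the 8 samples, the highest value among the 36 pairs of the 9 genes, and points of one array share its scaling. The other probe of Lrat, whose 60 bases lie nearer the start of the transcript, correlated with the tested one at r = 0.056, and it was mostly below background, so that the pattern of Lrat rests on 1 probe.

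The RefSeq promoters of Timp1 and Lrat are shown because the levels of both genes had the highest correlation, from 250 bases before to 50 bases after the start on the GRCr8 build, at chrX:3771073-3771372 (minus strand) and chr2:170571163-170571462 (minus strand). Capitals mark matches on either strand to the TATA motif TATAAA, to the motif CCAAT, to the GC motif GGGCGG, to the AP-1 motif TGANTCA and to the CArG box. GGGCGG, which is found in 33.1% of the 33469 promoters of this table, occurs in both, and CCAAT, found in 37.5%, occurs in that of Lrat. Such matches describe the letters in this window and were not tied to the levels by any test. The table held promoters of 6 of the 10 genes.
Timp1 promoter: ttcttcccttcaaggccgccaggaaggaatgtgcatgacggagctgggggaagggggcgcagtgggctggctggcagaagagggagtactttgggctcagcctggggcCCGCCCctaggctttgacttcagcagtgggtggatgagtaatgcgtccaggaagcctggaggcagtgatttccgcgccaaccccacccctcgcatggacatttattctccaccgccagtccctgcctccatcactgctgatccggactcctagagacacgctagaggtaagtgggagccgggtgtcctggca
Lrat promoter: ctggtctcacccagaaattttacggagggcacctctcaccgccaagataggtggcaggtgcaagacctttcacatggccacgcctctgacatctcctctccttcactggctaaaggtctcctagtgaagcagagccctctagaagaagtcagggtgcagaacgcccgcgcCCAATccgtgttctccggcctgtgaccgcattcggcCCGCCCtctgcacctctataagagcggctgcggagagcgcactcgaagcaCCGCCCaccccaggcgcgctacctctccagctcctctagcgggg

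Pdgfrb and Des were the genes whose levels separated BM-MC SHPCs from control SHPCs, by small amounts. The level of Pdgfrb, the receptor for PDGF-B, was -2.23 and -2.05 in the MHs, -1.59, -1.85 and -1.58 in control SHPCs, and -1.35, -1.54 and -1.41 in BM-MC SHPCs. Its samples formed 3 steps that did not overlap, from MHs through control SHPCs to BM-MC SHPCs. The log2 difference was 0.467 between control SHPCs and MHs (standard error 0.140, adjusted p = 0.158 from limma), 0.705 between BM-MC SHPCs and MHs (standard error 0.140, 95% limits 0.379 to 1.03, adjusted p = 0.142 from limma) and 0.239 between BM-MC SHPCs and control SHPCs (standard error 0.126, 95% limits -0.066 to 0.543, adjusted p = 0.384 from limma). With the median of each array as its zero the median difference of all probes between the SHPC groups went from 0.018 to -0.173, and the difference of Pdgfrb between these groups was then 0.047. Among the samples of the second slide set, 3 of BM-MC SHPCs and 1 of control SHPCs, the difference of Pdgfrb was 0.143.

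Des had levels of -3.79 and -4.11 in the MHs, -3.78, -3.86 and -3.91 in control SHPCs, and -3.59, -3.51 and -3.57 in BM-MC SHPCs. The 3 BM-MC SHPC samples were the highest of the 8, and the MHs and control SHPCs overlapped. The log2 difference between BM-MC SHPCs and control SHPCs was 0.292 (standard error 0.101, 95% limits 0.048 to 0.536), with an unadjusted p = 0.0258 and an adjusted p = 0.255 from limma. Among the samples of the second slide set it was 0.354, with 3 BM-MC SHPC samples and 1 control SHPC sample. It was 0.101 with arrays scaled to the median, 0.157 with quantile normalization and 0.145 with normexp.

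Acta2, the actin gene by which myofibroblasts are usually recognised, did not separate the groups. Its level was -4.27 and -3.83 in the MHs, -3.91, -3.80 and -4.10 in control SHPCs, and -3.97, -3.91 and -3.87 in BM-MC SHPCs. The 3 groups overlapped, and BM-MC SHPCs differed from control SHPCs by 0.015 (standard error 0.119, 95% limits -0.272 to 0.302, adjusted p = 0.961 from limma). A difference of up to 0.302 thus remains within these limits. Acta2 was measured by 1 probe on 1 spot, which has no genome coordinates in the array's annotation. Its processed signal lay between 73.4 and 125 units over the 8 samples.

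**Figure D3:**
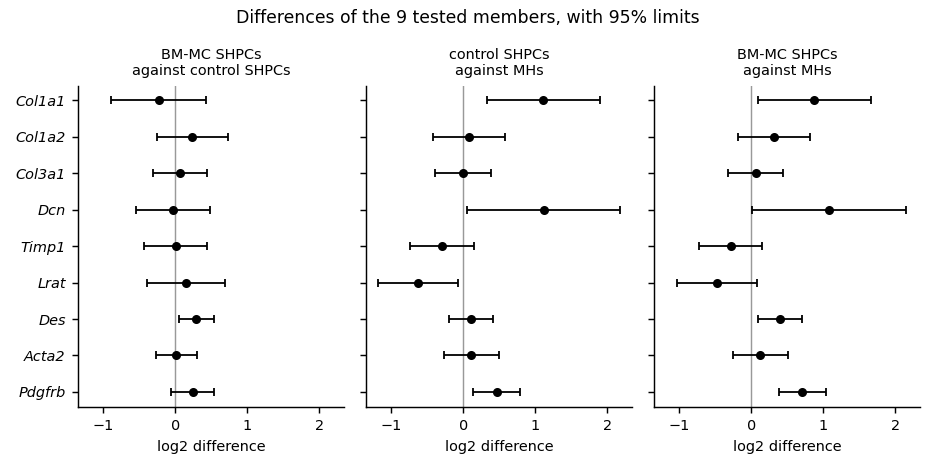
Log2 difference of each of the 9 tested genes in the 3 comparisons, with 95% limits from limma, not adjusted for the number of probes. The limits lie on one side of 0 for Des in BM-MC SHPCs against control SHPCs, for Col1a1, Dcn, Lrat and Pdgfrb in control SHPCs against MHs, and for Col1a1, Dcn, Des and Pdgfrb in BM-MC SHPCs against MHs.

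Against control SHPCs, 0 of the 9 genes in BM-MC SHPCs were higher and 0 lower past an adjusted p of 0.05 by limma, where 0.0216% of the 23111 tested probes were called higher and 0% lower. At an unadjusted p under 0.05, 1 of 9 (Des) was higher, beside 10.7% of all probes, and 0 of 9 were lower, beside 5.92%. Groups did not overlap for 2 of 9 higher (Des and Pdgfrb), beside 13.0% of all probes, and for 0 of 9 lower, beside 11.6%. The difference was above 0 for 7 of 9, beside 52.6% of all probes, and below 0 for 2, beside 47.4%. The median log2 difference of the 9 was 0.063, and that of all probes was 0.018. With arrays scaled to the median, Col3a1, Acta2, Lrat and Timp1 turned below 0, and the median of all probes was -0.173. The methods' t-test, unadjusted, also called 1 of 9 higher (Des), beside 8.12% of all probes, and 0 lower, beside 6.82%, and after Benjamini-Hochberg adjustment it called 0 probes.

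In control SHPCs against MHs, likewise 0 of the 9 were called by limma in either direction, beside 0.917% of probes called higher and 0.216% called lower. At an unadjusted p under 0.05, 3 of 9 were higher (Col1a1, Dcn and Pdgfrb), beside 8.21%, and 1 of 9 was lower (Lrat), beside 11.0%. Groups did not overlap for 2 of 9 higher (Col1a1 and Pdgfrb), beside 18.7%, and for 2 of 9 lower (Lrat and Timp1), beside 22.7%. The difference was above 0 for 6 of 9, beside 46.2% of all probes, and below 0 for 3, beside 53.8%. The median of the 9 was 0.101 and that of all probes was -0.032. The methods' t-test, unadjusted, called 2 of 9 higher (Col1a1 and Pdgfrb), beside 8.08% of all probes, and 2 of 9 lower (Lrat and Timp1), beside 9.39%.

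In BM-MC SHPCs against MHs, which shares its samples with both other comparisons, 0 of the 9 were called by limma, beside 0.320% of probes called higher and 0.0173% called lower. At an unadjusted p under 0.05, 4 of 9 were higher (Pdgfrb, Des, Col1a1 and Dcn), beside 7.33%, and 0 were lower, beside 5.95%. Groups did not overlap for 4 of 9 higher (Pdgfrb, Des, Col1a1 and Col1a2), beside 16.0%, and for 0 lower, beside 16.3%. The log2 difference of Col1a1 was 0.874 (standard error 0.336, adjusted p = 0.345 from limma, 0.499 without MH replicate 1, 0.562 without BM-MC SHPC replicate 1). That of Des was 0.393 (standard error 0.131, adjusted p = 0.309 from limma), and it ran from 0.19 to 0.551 over the alternatives. The difference was above 0 for 7 of 9, beside 50.5% of all probes, and below 0 for 2, beside 49.5%. The median of the 9 was 0.315, and that of all probes was 0.003. Unadjusted, the methods' t-test called 2 of 9 higher (Des and Pdgfrb), beside 4.39% of all probes, and 0 lower, beside 4.87%.

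Single samples shaped the set. BM-MC SHPC replicate 1 held the highest level of 6 of the 9 genes (Col1a1, Col1a2, Col3a1, Dcn, Pdgfrb and Timp1), while 8.07% of the 14444 named genes with a level in every sample were highest there. The count was 3 with arrays scaled to the median, beside 4.42% of the named genes, 5 with quantile normalization, beside 7.34%, and 8 without scaling, beside 22.5%. MH replicate 1 held the lowest level of 4 of the 9, beside 12.4% of the named genes. With each gene centred on its mean over the samples, the mean of the 9 genes was -0.353 and -0.052 in the MHs, 0.102, 0.014 and -0.036 in control SHPCs, and 0.383, 0.016 and -0.076 in BM-MC SHPCs. Replicate 2 of the BM-MC SHPCs thus lay within the range of the control SHPCs, and replicate 3 lay below their lowest sample. Without BM-MC SHPC replicate 1 the log2 difference between the SHPC groups went from 0.234 to 0.038 for Col1a2 and from -0.234 to -0.546 for Col1a1, and stayed at 0.310 for Des.

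The named genes whose profiles were most like this mean profile, of 14435 ranked over the 8 samples, were Crispld2 (r = 0.936), Col6a3 (r = 0.923), Il34 (r = 0.917), Tm4sf1 (r = 0.913) and Pan2 (r = 0.887). Col6a3 encodes a chain of type VI collagen, and its level was -0.456 and -0.298 in the MHs, between -0.145 and 0.090 in control SHPCs, and 0.642, -0.167 and -0.178 in BM-MC SHPCs. Its highest sample was again BM-MC SHPC replicate 1. These values describe likeness over 8 points and carry no test.

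The wider list of 21 stellate cell markers, which includes Lrat, Des and Pdgfrb, mostly had lower levels in control SHPCs than in MHs. Of these markers 17 were tested, and Ngfr, Gfap, Nes and Adamtsl2 were not. Rgs5, a regulator of G protein signalling found in pericytes, was the only marker of the list that passed in any of the 3 comparisons. Its level was -3.27 and -3.07 in the MHs, -4.18, -4.28 and -4.32 in control SHPCs, and -3.60, -3.49 and -3.98 in BM-MC SHPCs, without overlap between the groups. It fell by 1.09 on the log2 scale in control SHPCs against MHs (standard error 0.169, adjusted p = 0.0341 from limma), where 0.216% of all probes were called lower. Over 21 alternatives, chosen for it after its values were seen, the difference ran from -1.19 to -0.692 and the adjusted p from limma from 0.0125 to 0.156, and it passed in 9. It no longer passed without any one of the MH or control SHPC samples (adjusted p = 0.0691 to 0.156) or without BM-MC SHPC replicate 1 or 2 (adjusted p = 0.0519 and 0.0508). The adjusted p from limma was 0.0869 with the replicate number as a block. In this comparison the log2 difference was below 0 for 15 of 17, with a median of -0.588, where 53.8% of all probes were below 0. Groups did not overlap for 10 of 17 lower, beside 22.7% of all probes. Between the SHPC groups 13 of 17 were above 0 in BM-MC SHPCs, beside 52.6% of all probes, with a median of 0.292, 5 higher at an unadjusted p under 0.05, beside 10.7%, and 0 called by limma. For the groups of MHs and control SHPCs, leaving out a single sample gave 10 to 13 of 17, beside 26.0% to 36.0% of all probes, a repeat chosen after the data were seen.

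Markers of other liver cells are given beside these differences, and none of those below was called. For the hepatocytes themselves, markers went both ways in control SHPCs against MHs. At an unadjusted p under 0.05, 2 of 15 were higher and 2 lower, beside 8.21% and 11.0% of all probes. Groups did not overlap for 3 higher and 3 lower, beside 18.7% and 22.7%. Apoa2 was at -1.68 and Cyp2e1 at -1.23, while Apoa1 was at 0.728 and Cps1 at 0.920 (adjusted p = 0.126 to 0.229 from limma). The mean log2 level of 12 Kupffer cell markers was 1.49 and 1.75 in the MHs, 1.27, 1.23 and 0.729 in control SHPCs, and 1.44, 1.30 and 0.931 in BM-MC SHPCs, and 11 of 12 were below 0 in control SHPCs against MHs, beside 53.8% of all probes, with a median of -0.602, 7 of 12 lower at an unadjusted p under 0.05, beside 11.0%, and 0 called by limma. Cd68 of this list was at -0.837 (adjusted p = 0.152 from limma). For 10 sinusoidal endothelial markers the median was -0.225, with 9 of 10 below 0, 2 lower at an unadjusted p under 0.05 and 0 called by limma, beside the same shares of all probes. The mean level of 7 cholangiocyte markers was -4.51 and -4.05 in the MHs and between -4.12 and -3.43 in the SHPCs, so that it was lowest in MH replicate 1 as Col1a1 and Dcn were, and their median difference was 0.533 with 6 of 7 above 0, beside 46.2% of all probes, 2 at an unadjusted p under 0.05, beside 8.21%, and 0 called by limma. Krt19 of this list, above background on 6 of the 7 arrays, was at 1.76 (adjusted p = 0.179 from limma). Its level was -6.34 in MH replicate 1, -4.88 in MH replicate 2 and between -4.96 and -3.36 in the SHPCs, so that the size rests in part on MH replicate 1. The mean level of 3 granulocyte markers was -3.39 and -1.58 in the MHs, between -2.04 and -1.48 in control SHPCs and between -3.46 and -3.14 in BM-MC SHPCs. These markers were thus low in MH replicate 1 and in every BM-MC SHPC sample. In BM-MC SHPCs against control SHPCs all 3 were lower at an unadjusted p under 0.05, beside 5.92% of all probes, with a median of -1.46 and 0 called by limma, and S100a9 was at -1.84 (adjusted p = 0.0676 from limma). The mean level of 4 erythroid markers was -2.15 and -1.34 in the MHs, -1.75, -1.87 and -0.359 in control SHPCs, and between -2.51 and -2.27 in BM-MC SHPCs. Control SHPC replicate 3 stood above the other 7 samples. Between the SHPC groups 3 of these 4 were lower in BM-MC SHPCs without overlap, beside 11.6% of all probes, with a median of -1.39, 2 lower at an unadjusted p under 0.05 and 0 called by limma. The size of these 3 differences rests in part on control SHPC replicate 3. Hba-a2, for one, was at 1.51 there, at -0.317 and -0.455 in the other control SHPCs, and between -1.41 and -1.02 in BM-MC SHPCs. The part of these other cells in the levels of the 9 genes was not tested.

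**Figure D4:**
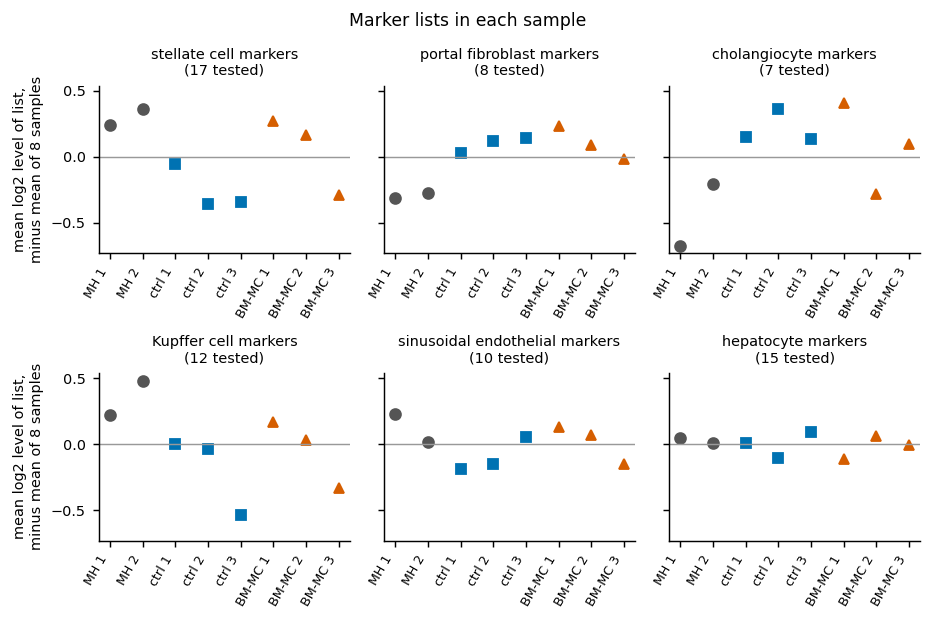
Mean log2 level of the tested genes of 6 marker lists in each sample, minus the mean of that list over the 8 samples. Circles are MHs, squares control SHPCs (ctrl) and triangles BM-MC SHPCs. Kupffer cell markers are highest in the MHs, stellate cell markers are higher in both MHs than in the control SHPCs, portal fibroblast markers are lowest in the MHs, and hepatocyte markers vary least of these lists.

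Markers of other matrix-producing cells were partly out of reach. Of 8 smooth muscle markers 3 were tested, since Myh11, Cnn1, Actg2, Lmod1 and Synpo2 did not pass the filter, and among these 3 Tagln, a muscle cytoskeletal protein gene, was at 0.805 in control SHPCs against MHs (adjusted p = 0.0842 from limma). The others were Des at 0.101 and Smtn at -0.269, so that 2 of 3 were above 0 and the median was 0.101. Of 14 portal fibroblast markers 8 were tested, with 7 above 0 in control SHPCs against MHs, beside 46.2% of all probes, a median of 0.150, 2 higher at an unadjusted p under 0.05, beside 8.21%, and 0 called by limma. Entpd2, an ectonucleotidase gene of portal fibroblasts, was at 0.744 (adjusted p = 0.109 from limma), and Msln, which mesothelial cells also express, was at 1.59 (adjusted p = 0.164 from limma). Of 5 surface markers of bone marrow mesenchymal cells all were tested, with 0 called in any comparison and a median of -0.065 in BM-MC SHPCs against control SHPCs. In control SHPCs against MHs 4 of 5 were below 0, beside 53.8% of all probes, and Cd44 was at -0.940 (adjusted p = 0.236 from limma).

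The genes around the collagens, from lists that overlap the 9 genes in part, held 0 calls by limma in any of the 3 comparisons, and the methods' t-test after adjustment called 0 probes in each. Of 11 fibrillar collagens 9 were tested, with medians of 0.063 in BM-MC SHPCs against control SHPCs (2 higher at an unadjusted p under 0.05, beside 10.7% of all probes) and -0.034 in control SHPCs against MHs (1 higher and 1 lower, beside 8.21% and 11.0%). Col11a2, a minor fibrillar collagen gene, was among them, but it was above background on 3 of the 7 arrays only, and its differences are not given. Of 19 other collagens 8 were tested, with medians of 0.153 and -0.080, and Col6a2 was at 0.540 with BM-MCs (adjusted p = 0.286 from limma). Its level was -0.013, -0.538 and -0.723 in BM-MC SHPCs and between -1.10 and -0.751 in control SHPCs. BM-MC SHPC replicate 1 was thus again the highest sample. Of 28 collagen processing enzymes 23 were tested, with 17 of 23 above 0 with BM-MCs, beside 52.6% of all probes (2 higher and 1 lower at an unadjusted p under 0.05, beside 10.7% and 5.92%). In control SHPCs against MHs 18 of 23 were below 0, beside 53.8% (2 higher and 6 lower at an unadjusted p under 0.05, beside 8.21% and 11.0%). The cross-linking enzyme genes Lox and Loxl4 had differences of opposite sign, Lox (above background on 6 of the 7 arrays) at -1.33 with BM-MCs and 1.59 in control SHPCs against MHs, and Loxl4 at 0.796 and -0.733. None of these 4 values passed, with adjusted p from 0.108 to 0.185 by limma.

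Of 19 TIMPs and MMPs, Timp1 included, 10 were tested, and Timp4, Mmp9, Mmp13 and 6 other metalloproteinases did not pass the filter. In control SHPCs against MHs 8 of 10 were below 0, beside 53.8% of all probes, with a median of -0.366, 4 lower at an unadjusted p under 0.05, beside 11.0%, and 0 called by limma. Mmp16, a membrane-type metalloproteinase gene, was at -0.922 (adjusted p = 0.147 from limma), and Mmp2, a gelatinase gene, was at -1.23 (adjusted p = 0.172 from limma). Of 12 small leucine-rich proteoglycans 7 were tested, with 0 higher and 1 lower at an unadjusted p under 0.05 in BM-MC SHPCs against control SHPCs, beside 10.7% and 5.92% of all probes. The one lower was Fmod, which was above background on 4 of the 7 arrays only, and its difference is not given. In control SHPCs against MHs 2 were higher and 1 lower in this way, beside 8.21% and 11.0%, with a median of 0.431. The 2 higher were Dcn and Ogn, with Ogn at 0.977 (adjusted p = 0.158 from limma). The one lower, Omd, the gene of osteomodulin, was at -0.468 (adjusted p = 0.14 from limma). Of 7 PDGF ligands and receptors Pdgfa, Pdgfra and Pdgfrb were tested, and Pdgfra was at 0.194 with BM-MCs (adjusted p = 0.604 from limma). Pdgfb, the ligand, did not pass the filter.

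Of 19 contractile genes, Acta2 included, 15 were tested, with 2 higher and 2 lower in control SHPCs against MHs at an unadjusted p under 0.05, beside 8.21% and 11.0% of all probes. Tpm2, a tropomyosin gene, was at 1.05 in control SHPCs against MHs and Synm, whose product binds desmin, was at -0.787 (adjusted p = 0.0824 and 0.0619 from limma). Of 20 matrix glycoproteins 13 were tested, with 2 higher and 2 lower in the same way. Fbln1 was at 1.80 and Emilin1 at -0.559 (adjusted p = 0.101 and 0.13 from limma). The others, Fbln5 (higher) and Mfap5 (lower), were above background on 4 of the 7 arrays only, and their differences are not given. Of 18 retinoid genes, Lrat included, 15 were tested, with 0 higher and 5 lower at an unadjusted p under 0.05, beside the same 8.21% and 11.0%, and with a median of -0.043, where that of all probes was -0.032. Aldh1a1, which makes retinoic acid, was at -1.34 in control SHPCs against MHs (adjusted p = 0.0557 from limma), and it did not overlap between these groups.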

How the data were processed

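RNA of captured cells was labelled in 1 colour and hybridised to Agilent rat arrays. The authors deposited the scanner software's (Agilent Feature Extraction 10.7) processed signal, a background-subtracted intensity, as scanner files and as a value table. The table holds the same signals without scaling, and it supplied those of control SHPC replicate 2, whose scanner file stops after 20903 of 62976 features. Groups came from the sample titles. Each log2 signal was taken less the 75th percentile of its array, outlier-marked spots were dropped and the remaining spots of a probe averaged. Spots of control SHPC replicate 2 without an outlier mark were kept. The 23111 probes with a spot well above background on 3 or more of the 7 completely marked arrays entered limma 3.58.1 (R 4.3.3, 95% limits, Benjamini-Hochberg adjustment, adjusted p under 0.05), after tests on simulated data. BM-MC SHPCs and control SHPCs were compared within these 6 samples, and both with MHs in 1 fit of 8 samples. The number of arrays limits the precision.

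A gene was represented by its tested probe of highest mean. Genes named outside the 10 came, per list, from those that passed or the 2 of lowest unadjusted p, and not all of these are named. Other genes were added where the signs in a list differed, and the 5 most like the mean profile were named too. Probes were named by RefSeq accession, symbol or synonym (GRCr8), of 45598 probes 21109, 6684 and 424, and 7635 kept the file's name. The members and lists were chosen with earlier results of these data known. Alternatives covered scaling, filters, background correction, blocks, variance models and samples left out.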

Additional observations from a re-analysis of the deposited data

How the results depend on the processing

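Under every one of the alternatives run, 0 of the 9 genes were called in each of the 3 comparisons. Of 354 differences recomputed under settings that kept all samples of their fit or the 7 complete arrays, 333 kept their direction and 21 turned. In BM-MC SHPCs against control SHPCs, scaling to the median turned Col3a1 (-0.129), Acta2 (-0.177), Lrat (-0.040) and Timp1 (-0.186), quantile normalization turned Acta2 (-0.142), normexp turned Acta2 (-0.024) and Timp1 (-0.012), array weights turned Acta2 (-0.038) and Timp1 (-0.008), and the slide set as a block turned Dcn (0.293). In control SHPCs against MHs, Col1a2 turned without scaling (-0.007) and with the slide set block (-0.020), Acta2 with normexp (-0.004), and Col3a1 with the replicate block (0.055), the slide set block (0.007) and array weights (0.007). In BM-MC SHPCs against MHs, Col3a1 turned with median scaling (-0.138) and without scaling (-0.021), and Acta2 with median scaling (-0.073), quantile normalization (-0.054) and normexp (-0.027). With 1 sample left out, 19 of 198 differences turned. Ranges then were, in BM-MC SHPCs against control SHPCs, -0.206 to 0.087 for Dcn, -0.065 to 0.083 for Acta2, -0.176 to 0.130 for Timp1, -0.085 to 0.168 for Col3a1 and -0.085 to 0.347 for Lrat, in control SHPCs against MHs, -0.111 to 0.331 for Acta2, -0.071 to 0.066 for Col3a1, -0.056 to 0.258 for Des and -0.020 to 0.175 for Col1a2, and in BM-MC SHPCs against MHs, -0.088 to 0.166 for Col3a1 and -0.096 to 0.346 for Acta2. The count of BM-MC SHPC replicate 1 as highest sample under other scalings was chosen after the data were seen.

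The background of all probes moved more. In BM-MC SHPCs against control SHPCs limma called 5 probes, and 213 without scaling, 0 without a filter, 3 with probes above background on all complete arrays, 3 with a floor for dim spots, 3 with normexp, 22 in the fit of all 8 samples, 33 with an intensity trend, 359 with array weights and 0 to 530 with 1 sample left out. In control SHPCs against MHs it called 262, and 136 without a filter, 124 with normexp, 559 with a trend, 500 with array weights and 55 to 523 with 1 sample left out. In BM-MC SHPCs against MHs it called 78, and 50 with median scaling, 7 with quantile normalization, 1 without a filter, 3 with normexp, 3 with the slide set block, 0 with only these groups in the fit, 130 with a trend and 0 to 115 with 1 sample left out. The methods' t-test after adjustment called 0 in each. With the replicate number as a block the counts were 0, 159 and 0. Same-numbered samples correlated at -0.124 to 0.192 in their deviations from group means, so the numbers were not taken to pair the samples. The cause of these changes was not tested.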
